A study of Sus scrofa with 11 samples.

Results

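Solute carriers are membrane proteins that move small molecules across the plasma membrane and the membranes of organelles. The families are defined by sequence, and each tends to serve one kind of substrate, such as sugars, monocarboxylates including lactate, amino acids, metal ions, inorganic ions or nucleosides. In skeletal muscle they bring in glucose and amino acids, carry lactate out of fast glycolytic fibres and into slow oxidative ones, and keep pH, sodium and phosphate in balance.

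The genes described here are the rows of the gene table whose symbol starts with SLC, without the SLC25A genes of the mitochondrial inner membrane and without SLC19A2. Of 25322 genes 260 rows met that description. A row was kept if it had at least 1 CPM (counts scaled to a common library total) in at least 4 of the 11 pigs, which left 98. Of the other 162 rows 26 were at 0 in every pig and 136 had counts under the rule. Total RNA was taken from the longissimus lumborum, which runs along the loin, in female pigs 23 weeks old. In 7 pigs, called fibre1, type I fibres (slow and oxidative) were above 17% and type IIB fibres (fast and glycolytic) below 70%. In 4 pigs, called fibre2B, type I fibres were below 8% and type IIB fibres above 70%. Breed, feed and treatment are not given in the sources used here.

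The libraries held 14832736 to 36374829 counts, so 1 CPM stood for 14.8 to 36.4 counts. Fibre1 pigs 5 and 6 stood apart, with 45.2% and 44.1% of counts on the 10 most abundant nuclear genes, against 29.5% to 36.8% in the other 9 pigs. Of 10 skeletal muscle fibre markers 6 were tested, and their summed level was 120588 to 258144 CPM in fibre1 and 104190 to 133365 CPM in fibre2B. The 98 solute carriers together ran from 1196 to 1750 CPM in fibre1 pigs and from 1270 to 1665 CPM in fibre2B pigs, so the groups overlapped in total. These are whole-muscle samples, in which fewer cells of a type and less RNA per cell cannot be told apart.

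The comparison asked which solute carriers differ between muscle with many and muscle with few type I fibres. In fibre1 muscle the endoplasmic reticulum glucose-6-phosphate carrier SLC37A1, the magnesium carrier SLC41A1, the zinc carrier SLC39A13, and SLC35A4 and SLC66A2 were higher. In fibre2B muscle the aromatic amino acid carrier SLC16A10, the creatine carrier SLC16A12, the lysosomal arginine sensor SLC38A9, the carnitine carrier SLC16A9, the Golgi sialic acid donor carrier SLC35A1 and its relative SLC35A5 were higher. Among the kept rows 0 of 4 lactate, 0 of 16 inorganic ion and 0 of 2 nucleoside carriers passed. Classes this small can hold 0 calls at the share of all tested genes. In all 11 of 98 rows, or 11.2%, passed at an adjusted p of 0.05 in edgeR's quasi-likelihood test. Of all 11329 tested genes 9.01% passed. Of the 11 rows 5 were higher in fibre1, where 4.38% of all tested genes were, and 6 were higher in fibre2B, where 4.63% were. Among the 10002 tested genes that met the same CPM rule 9.87% passed. The share of solute carriers that passed is therefore near that of genes at large. An unadjusted p under 0.05 was found in 24 of the 98 rows and in 3272 of the 11329 tested genes. Counts at that level below are to be read beside these.

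Direction was balanced as well. Of the 98 rows 49 had a positive log2 fold change (fibre1 minus fibre2B), and the median was 0.0033, beside 0.0073 over all genes tested. Below, log2 fold changes are given ± SE and mean levels ± SD, with n = 7 in fibre1 and n = 4 in fibre2B. The median size of the log2 fold change was 0.39 in the solute carriers and 0.32 over all genes tested. Within a group the median coefficient of variation between pigs was 27.2% in fibre1 and 24.04% in fibre2B for the carriers, and 25.2% and 21.6% over all genes tested. In 6 of the 98 rows no fibre1 pig overlapped with a fibre2B pig, where 7.55% of all tested genes did not overlap. In 3 rows all fibre1 pigs lay above (3.4% of all tested genes), and in 3 all fibre2B pigs did (4.15%). None of the kept rows met the CPM rule through pigs of 1 group alone, and 74 had 1 CPM in all 11 pigs.

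**Figure D1:**
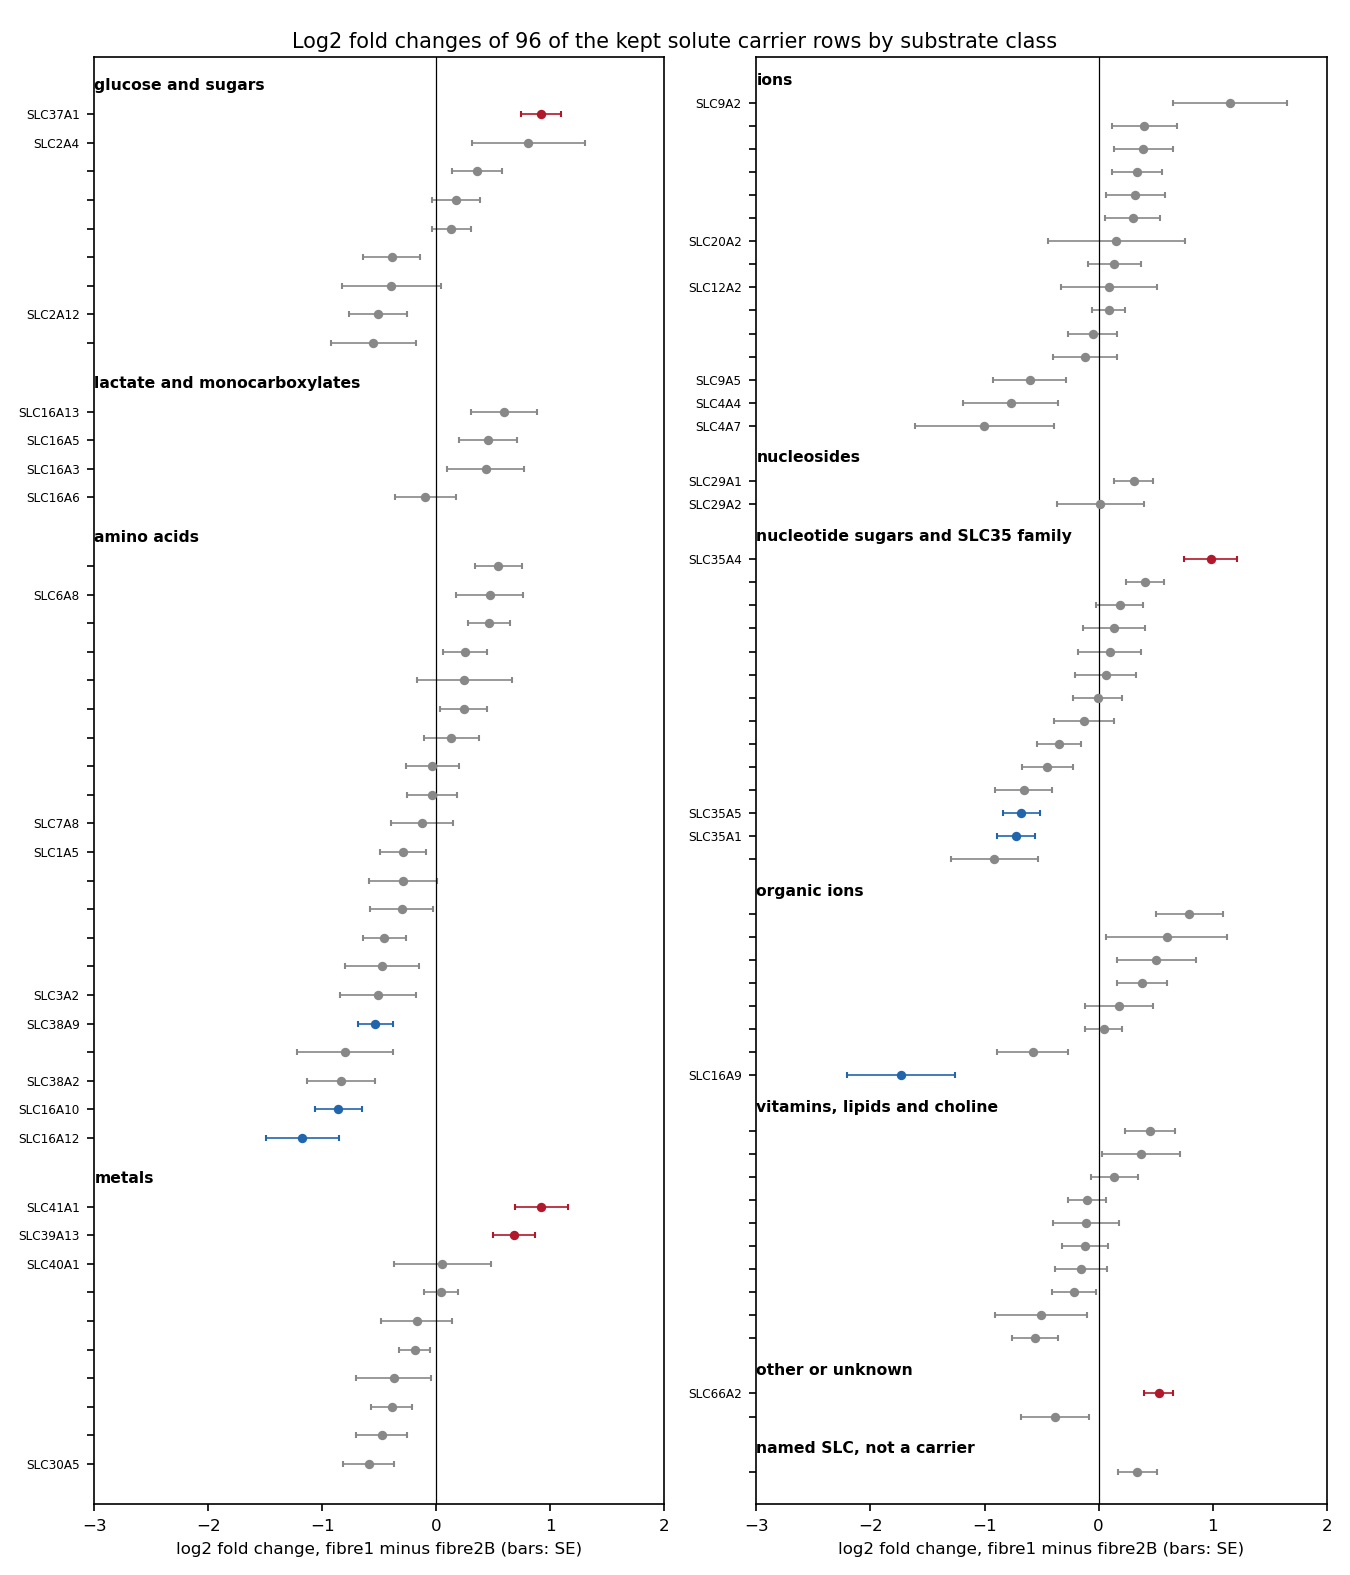
Log2 fold change (fibre1 minus fibre2B, horizontal axis) of 96 of the 98 kept solute carrier rows, grouped by substrate class, with labels on the genes described with values and bars for the standard error. Red points passed and were higher in fibre1 (5), blue points passed and were higher in fibre2B (6), and grey points did not pass (85); points lie on both sides of 0 in 9 of the 11 groups shown, the exceptions being the 2 nucleoside carriers and the 1 row that is no carrier.

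Each of the 11 calls was lost when some single pig was left out. Without fibre2B pig 14 edgeR called 0 solute carriers and 0 genes in all. An unadjusted p under 0.05 was then found in 19 of the 98 rows and in 2436 of 11538 tested genes. On the same 10 pigs DESeq2 called 8 of the 98 rows (8.16%) beside 6.73% of all genes, a run chosen after seeing the data. Without fibre1 pigs 5 and 6 edgeR called 0 of the 98 rows and 28 genes. Here 20 rows and 2438 of 11243 tested genes had an unadjusted p under 0.05. When the fit also held each pig's count share on the top 10 genes, SLC37A1 and SLC35A4 passed (2.04% of the 98 rows), and 460 genes in all (4.06%). The 11 carriers kept their direction in each of these fits, which share all or most pigs with the fit that picked them.

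**Figure D2:**
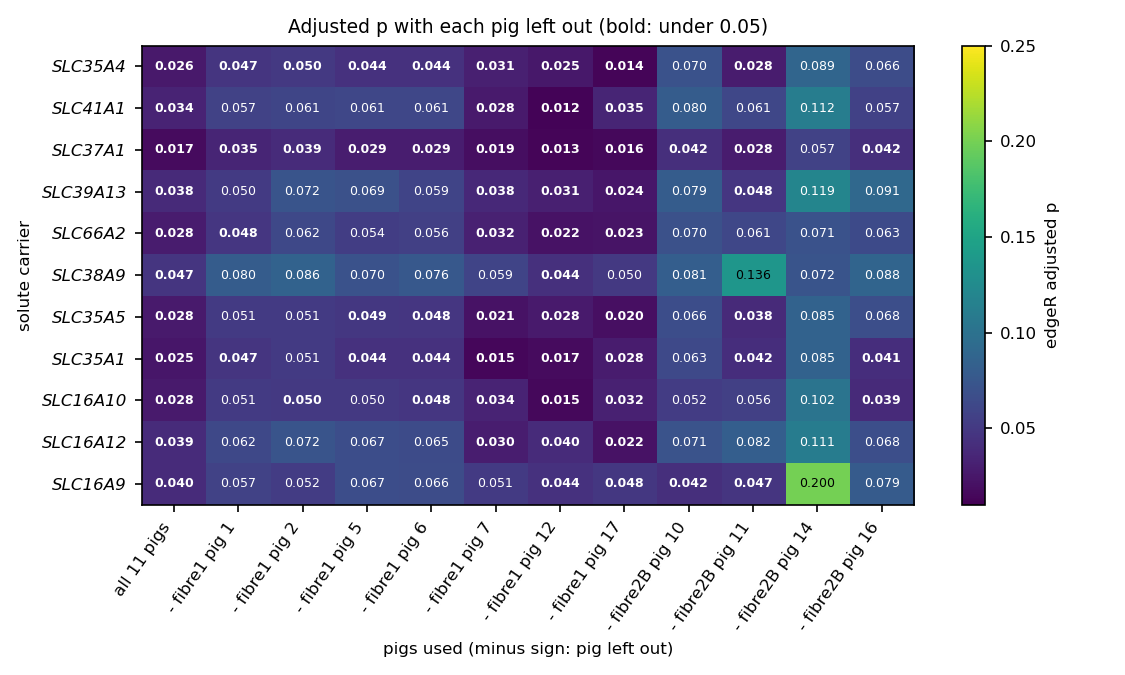
Adjusted p of edgeR's quasi-likelihood test for the 11 solute carriers that passed (rows), with all 11 pigs and with each pig left out in turn (columns), where bold marks values under 0.05. The column without fibre2B pig 14 holds no bold value, and SLC37A1 is bold in every other column.

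Markers of other cells in muscle differed between the groups in part. Over all 11329 tested genes 9.01% passed and 3272 had an unadjusted p under 0.05. Of 6 fibroblast markers with a row 5 were tested, 0 were positive and 2 were higher in fibre2B, and their summed level was 474 to 979 CPM in fibre1 and 745 to 1440.4 CPM in fibre2B. Of 6 red cell markers with a row 3 were tested, 0 were positive and 1 was higher in fibre2B, with sums of 137 to 468 CPM in fibre1 and 423 to 957 CPM in fibre2B and with KLF1 at 0 in every pig. Of 9 leukocyte markers 0 passed in edgeR and 2 had an unadjusted p under 0.05, with sums of 15.6 to 51.4 CPM in fibre1 and 29.2 to 84.2 CPM in fibre2B. Of 7 endothelial markers 0 passed in edgeR and 4 had an unadjusted p under 0.05, with sums of 150 to 214 CPM in fibre1 and 132 to 178 CPM in fibre2B. Of 9 smooth muscle and pericyte markers 7 were positive, 4 had an unadjusted p under 0.05 and 1 passed, KCNJ8, which was higher in fibre2B, with sums of 3916 to 7480 CPM in fibre1 and 2727 to 5534 CPM in fibre2B, mostly from DES, which muscle fibres also express. Of 5 adipocyte markers 4 were positive and 1 passed, RBP4, which was higher in fibre2B, with sums of 52.4 to 100.2 CPM in fibre1 and 34.9 to 112 CPM in fibre2B. Nerve and Schwann cell markers were near 0, at 0.22 to 1.93 CPM in fibre1 and 0.17 to 2.69 CPM in fibre2B. Median log2 fold changes were -0.80 in the fibroblast, -1.14 in the red cell and -0.65 in the leukocyte list, and -0.78 for the 1 nerve marker tested. They were 0.29 in the endothelial, 0.43 in the smooth muscle, 0.34 in the adipocyte and 0.46 in the muscle fibre list. Members of a list could differ in sign, and of the 7 endothelial markers 5 were positive. Carriers passed in both directions, so a list of either sign shares it with some of them. The part of these cells in the carrier results was not tested.

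Sugar carriers came first in the order of classes. Of 9 kept rows 1 was higher in fibre1, 0 were higher in fibre2B and 8 did not pass, where 9.01% of all tested genes passed. The median log2 fold change was 0.13. The summed level of the class was 219.7 to 445 CPM in fibre1 and 228 to 362 CPM in fibre2B, and the 6 rows not named here ran from -0.55 to 0.36 on the log2 scale. SLC37A1 exchanges glucose-6-phosphate for phosphate at the endoplasmic reticulum. It ran from 4.82 to 7.05 CPM with a median of 5.67 in fibre1 pigs, against 3.44, 3.42, 3.29 and 2.19 CPM in fibre2B pigs 10, 11, 14 and 16. Every fibre1 pig lay above every fibre2B pig. The gap measured 0.92 ± 0.18 on the log2 scale (edgeR adjusted p = 0.017), and among single pigs only the loss of fibre2B pig 14 ended the call (adjusted p = 0.057).

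SLC2A4 encodes the insulin-responsive glucose transporter that moves to the surface of muscle fibres. It ran from 0.703 to 3.81 CPM with a median of 1.12 in fibre1 pigs, against 1.51, 0.607, 1.02 and 0.886 CPM in the 4 fibre2B pigs in the same order. Fibre1 pigs 6, 7 and 12 were the highest of all 11 pigs and the other 4 fibre1 pigs lay within the fibre2B range. Its log2 fold change was 0.81 ± 0.49 (edgeR adjusted p = 0.297). SLC2A12, another glucose transporter of muscle and fat, averaged 5.45 ± 1.75 CPM in fibre1 pigs and 7.80 ± 2.06 CPM in fibre2B pigs, with a log2 fold change of -0.51 ± 0.26 (edgeR adjusted p = 0.201). Of 11 listed genes of insulin-driven glucose uptake 7 were tested and 1 was higher in fibre1, AKT2, a kinase downstream of the insulin receptor. Over all tested genes 4.38% were higher in fibre1. AKT2 averaged 75.8 ± 19.5 CPM in fibre1 pigs and 41.5 ± 5.83 CPM in fibre2B pigs, with a log2 fold change of 0.87 ± 0.19 (edgeR adjusted p = 0.024). All its fibre1 pigs lay above all its fibre2B pigs, as in 3.4% of all tested genes.

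Lactate and other monocarboxylate carriers of the SLC16 family gave 0 calls among 4 kept rows, where 9.01% of all tested genes passed. Of the 4 rows 0 had an unadjusted p under 0.05, and DESeq2 and limma-voom also called 0. SLC16A3 encodes the carrier by which glycolytic fibres export lactate. It ran from 34.4 in fibre1 pig 1 to 146 CPM in fibre1 pig 5 with a median of 80.5, against 63.6, 50.1, 39.4 and 98.5 CPM in fibre2B pigs 10, 11, 14 and 16. The lowest and the highest pig of the study were both fibre1 pigs. Its log2 fold change was 0.43 ± 0.34 (edgeR adjusted p = 0.413). Without fibre1 pigs 5 and 6 it was 0.099. It was 0.013 when the fit also held each pig's count share on the top 10 genes. SLC16A5 and SLC16A13 had log2 fold changes of 0.45 ± 0.26 and 0.59 ± 0.29 (edgeR adjusted p = 0.256 and 0.199), and the remaining row, SLC16A6, had -0.097 ± 0.27 (0.837). The summed level of the 4 rows was 85.7 to 231 CPM in fibre1 and 77.1 to 179 CPM in fibre2B. Of 5 listed partners of the lactate route 3 were tested and 0 passed, with 1 at an unadjusted p under 0.05, PDK4 (-2.56 ± 0.77, edgeR adjusted p = 0.054). LDHA, which makes lactate from pyruvate, had a log2 fold change of 0.058 ± 0.18 (edgeR adjusted p = 0.851).

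Amino acid carriers held 21 kept rows, of which 0 were higher in fibre1, 3 were higher in fibre2B and 18 did not pass. Over all tested genes 4.38% were higher in fibre1 and 4.63% were higher in fibre2B. The median log2 fold change was -0.29, and 7 of the 21 were positive. The class summed to 316 to 604 CPM in fibre1 and 389 to 613 CPM in fibre2B. The 13 rows not named here ran from -0.80 to 0.54 on the log2 scale, 3 of them with an unadjusted p under 0.05 (smallest adjusted p = 0.106). SLC16A10 carries aromatic amino acids. In fibre1 pigs it ran from 2.31 to 4.43 CPM with a median of 3.30, against 5.14, 6.67, 7.44 and 4.27 CPM in fibre2B pigs 10, 11, 14 and 16. Fibre1 pig 12 lay just above fibre2B pig 16, and the other pigs were apart. On the log2 scale the difference was -0.86 ± 0.21 (edgeR adjusted p = 0.028), and the call ended without fibre2B pig 14 (adjusted p = 0.102) and without any one of fibre1 pigs 1 and 5 and fibre2B pigs 10 and 11 (0.0502 to 0.0557).

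SLC16A12, a creatine carrier, had the largest size of log2 fold change among the named amino acid carriers. It ran from 0.587 to 2.06 CPM with a median of 1.02 in fibre1, against 2.34, 3.38, 2.95 and 2.29 CPM in the fibre2B pigs in the same order. All 4 fibre2B pigs lay above all 7 fibre1 pigs. The difference came to a log2 fold change of -1.18 ± 0.32 (edgeR adjusted p = 0.039). The call ended without fibre2B pig 14 (adjusted p = 0.111), without any one of fibre1 pigs 1, 2, 5 and 6 and fibre2B pigs 10, 11 and 16 (0.0618 to 0.0819), and with no filter on low counts (0.052). SLC38A9 sits in the lysosomal membrane, where it senses arginine for the growth kinase complex mTORC1. It ran from 3.94 to 4.49 CPM in fibre1, a narrow range, against 5.73, 8.06, 4.77 and 5.84 CPM in fibre2B. Every fibre2B pig was higher than every fibre1 pig, and fibre2B pig 11 was the highest. As a log2 fold change this was -0.53 ± 0.15 (edgeR adjusted p = 0.047). Without fibre2B pig 11 it was -0.36 (adjusted p = 0.136), and the call also ended without any other single pig but fibre1 pig 12 (0.0501 to 0.0876), with no filter on low counts (0.082) and with limma-voom (0.061).

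The other named carriers of this class did not pass. SLC38A2, a sodium-coupled carrier of small neutral amino acids, averaged 3.66 ± 1.74 CPM in fibre1 pigs and 6.60 ± 1.31 CPM in fibre2B pigs, with a log2 fold change of -0.83 ± 0.30 (edgeR adjusted p = 0.089). It passed with DESeq2 (adjusted p = 0.0498) and without fibre1 pig 12 (0.022). SLC3A2, the heavy chain shared by several light-chain exchangers, ran from 70.9 to 228 CPM in fibre1, against 116, 114, 198 and 295 CPM in fibre2B, with wide spread in both groups. Its log2 fold change was -0.52 ± 0.33 (edgeR adjusted p = 0.324). A light chain that pairs with it, SLC7A8, had -0.13 ± 0.27 (0.789), and the glutamine carrier SLC1A5 had -0.29 ± 0.20 (0.359). SLC6A8, the main creatine transporter of muscle, averaged 101 ± 42.5 CPM in fibre1 pigs and 73.1 ± 8.39 CPM in fibre2B pigs, with a log2 fold change of 0.47 ± 0.29 (edgeR adjusted p = 0.309). Its sign was opposite to that of SLC16A12. Without fibre1 pigs 5 and 6 the log2 fold change of SLC6A8 was 0.14. It was 0.12 when the fit also held each pig's count share on the top 10 genes. Of 8 listed genes of amino acid sensing 7 were tested, 6 were positive and 0 passed, with 1 at an unadjusted p under 0.05, CASTOR1 (-0.40 ± 0.18, edgeR adjusted p = 0.163), a cytosolic arginine sensor.

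Metal carriers held 10 kept rows, of which 2 were higher in fibre1, 0 were higher in fibre2B and 8 did not pass. Over all tested genes 9.01% passed. Only 4 of the 10 rows were positive and the median log2 fold change was -0.18, so the 2 calls give no direction of the class. The class summed to 88.4 to 123 CPM in fibre1 and 91.3 to 107 CPM in fibre2B, and the 6 rows not named here ran from -0.48 to 0.040 on the log2 scale. SLC41A1 carries magnesium across the plasma membrane. It ran from 16.6 in pig 12 to 41.2 CPM in pig 1 with a median of 30.7 in fibre1, against 15.3, 15.8, 13.3 and 19.95 CPM in fibre2B pigs 10, 11, 14 and 16. Fibre1 pig 12 lay within the fibre2B range and the other 6 fibre1 pigs above it. The log2 fold change was 0.92 ± 0.24 (edgeR adjusted p = 0.034), and the call ended without fibre2B pig 14 (adjusted p = 0.112) or without any one of fibre1 pigs 1, 2, 5 and 6 and fibre2B pigs 10, 11 and 16 (0.0565 to 0.0797).

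SLC39A13 releases zinc from intracellular vesicles into the cytosol. It ran from 11.1 to 21.6 CPM with a median of 13.5 in fibre1, against 9.68, 10.8, 8.46 and 9.01 CPM in fibre2B. No fibre1 pig overlapped with a fibre2B pig, though fibre1 pig 17 at 11.1 and fibre2B pig 11 at 10.8 CPM lay close together. This gave a log2 fold change of 0.68 ± 0.18 (edgeR adjusted p = 0.038), and the call ended without fibre2B pig 14 (adjusted p = 0.119) or without any one of fibre1 pigs 1, 2, 5 and 6 and fibre2B pigs 10 and 16 (0.0505 to 0.0907). SLC30A5, which loads zinc into the secretory pathway, had a log2 fold change of -0.60 ± 0.22 (edgeR adjusted p = 0.102). SLC40A1, the iron exporter ferroportin, had 0.052 ± 0.43 (0.951), and its sign turned without fibre1 pig 1 (-0.35), the highest pig, fibre1 pig 12 (-0.0033) or fibre2B pig 14 (-0.054), and with limma-voom (-0.16). Of 11 listed genes of iron and metal handling 4 were tested and 0 passed, with 1 at an unadjusted p under 0.05, CP, the copper ferroxidase ceruloplasmin (-0.80 ± 0.28, edgeR adjusted p = 0.082).

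Carriers of inorganic ions were the second largest class and had 0 calls among 16 kept rows, where 9.01% of all tested genes passed. Of the 16 rows 1 had an unadjusted p under 0.05. DESeq2 and limma-voom also called 0. The class summed to 104 to 129 CPM in fibre1 and 105 to 121 CPM in fibre2B, and the 10 rows not named by rule ran from -1.0 to 0.40 on the log2 scale. Their lowest was SLC4A7, a sodium-bicarbonate carrier named after its value was seen, at 1.14 to 7.88 CPM in fibre1 and 18.7, 1.43, 4.09 and 7.97 CPM in fibre2B (log2 fold change -1.0 ± 0.61, edgeR adjusted p = 0.292). The row with the smallest p was SLC9A2, a sodium-proton exchanger, which averaged 2.28 ± 1.66 CPM in fibre1 pigs and 1.03 ± 0.268 CPM in fibre2B pigs, with a log2 fold change of 1.15 ± 0.50 (edgeR adjusted p = 0.146). Fibre1 pigs 1 and 12 had 4.40 and 4.86 CPM and the other 5 fibre1 pigs at most 1.82, so it overlapped with the fibre2B range of 0.738 to 1.39 CPM. SLC9A5 of the same family had -0.60 ± 0.32 (edgeR adjusted p = 0.230). The sodium-bicarbonate carrier SLC4A4 ran from 4.30 to 22.5 CPM in fibre1, against 8.35, 28.3, 17.5 and 11.7 CPM in the fibre2B pigs, with a log2 fold change of -0.77 ± 0.42 (edgeR adjusted p = 0.236). Fibre1 pig 7 and fibre2B pig 11 were the highest of their groups. SLC12A2, a sodium, potassium and chloride carrier, had 0.090 ± 0.42 (0.908), and SLC20A2, a phosphate carrier, had 0.15 ± 0.60 (0.888). Both turned negative without fibre1 pig 12 (-0.29 and -0.34) and without fibre2B pig 14 (-0.13 and -0.074), and SLC20A2 also with limma-voom (-0.12). Of 7 listed partner genes of ion balance 7 were tested and 1 was higher in fibre2B, ATP1B1, a subunit of the sodium-potassium pump. Over all tested genes 4.63% were higher in fibre2B. ATP1B1 averaged 155 ± 30.5 CPM in fibre1 pigs and 255 ± 74.4 CPM in fibre2B pigs (log2 fold change -0.71 ± 0.20, edgeR adjusted p = 0.042).

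Both kept nucleoside carriers did not pass, where 9.01% of all tested genes passed. Of the 2 rows 0 had an unadjusted p under 0.05, and DESeq2 and limma-voom also called 0. SLC29A1, the main equilibrative nucleoside carrier of the plasma membrane, ran from 29.6 to 36.3 CPM in fibre1, a narrow range, against 36.1, 28.5, 17.7 and 20.7 CPM in fibre2B. Fibre2B pigs 11, 14 and 16 lay below every fibre1 pig, and fibre2B pig 10 did not. On the log2 scale the difference was 0.31 ± 0.17 (edgeR adjusted p = 0.253). SLC29A2 had 0.015 ± 0.38 (0.984), with 1.69 CPM in fibre2B pig 11 and 11.1 CPM in fibre2B pig 14. Its sign was negative with upper-quartile factors (-0.033) and when any one of fibre1 pigs 6, 7 and 17 and fibre2B pigs 10 and 11 was left out. Of 6 listed genes of nucleoside metabolism 6 were tested and 0 passed, with 2 at an unadjusted p under 0.05, ENTPD1 (-0.76 ± 0.30, edgeR adjusted p = 0.116) and UCK1 (0.41 ± 0.17, 0.141).

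**Figure D3:**
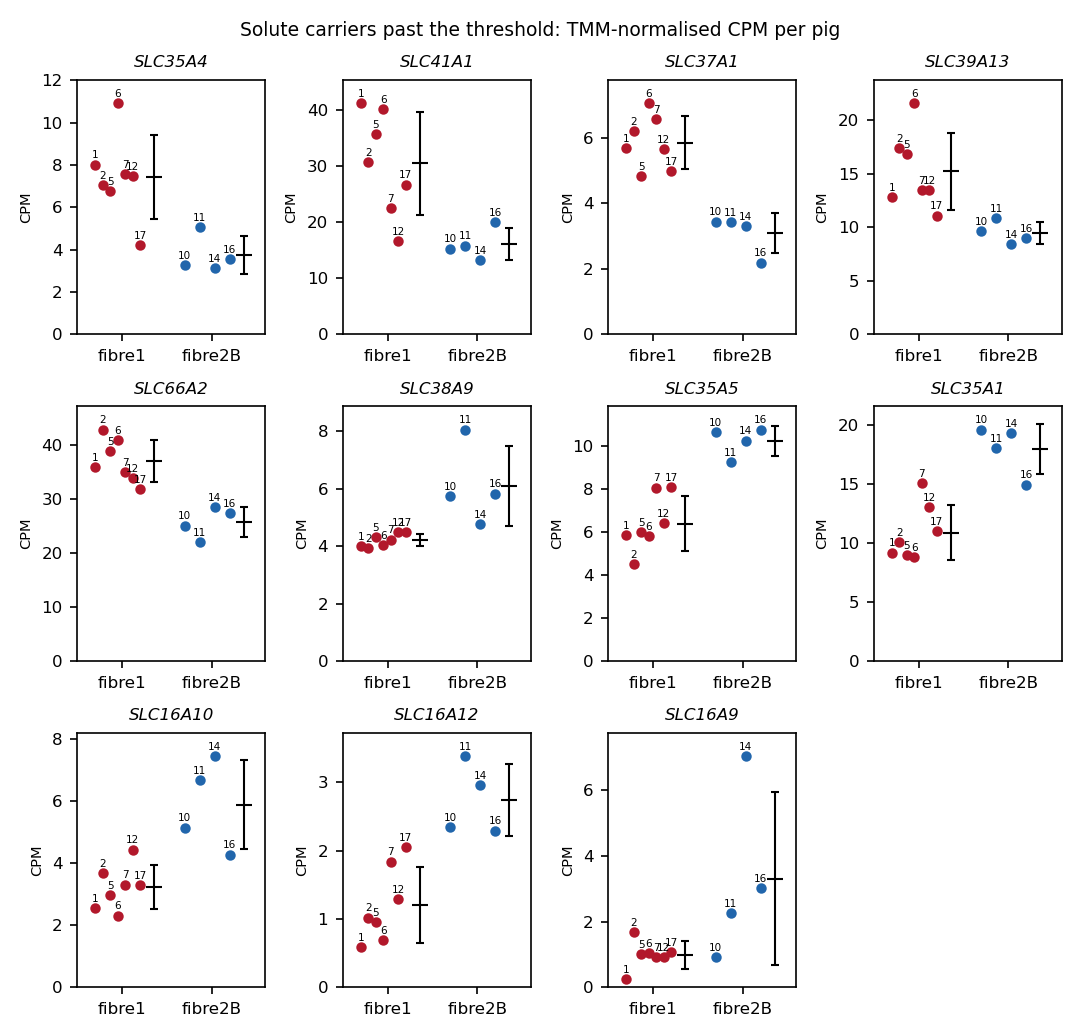
TMM-normalised CPM (vertical axes, each from 0) of the 11 solute carriers that passed, with a point per pig numbered as in the study, fibre1 pigs in red and fibre2B pigs in blue, and the mean with its SD in black. The groups do not overlap for SLC37A1, SLC39A13, SLC66A2, SLC38A9, SLC35A5 and SLC16A12, and fibre2B pig 14 alone lies far above the rest for SLC16A9.

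The remaining 36 kept rows lie outside the 6 substrate classes, and 5 of them passed, where 9.01% of all tested genes did. In the SLC35 family, whose best known members bring nucleotide sugars into the Golgi and endoplasmic reticulum, 1 of 14 rows was higher in fibre1, 2 were higher in fibre2B and 11 did not pass. The 11 that did not pass ran from -0.91 to 0.41 on the log2 scale, 3 of them with an unadjusted p under 0.05 (smallest adjusted p = 0.104). SLC35A1, which carries CMP-sialic acid, ran from 8.84 to 15.1 CPM with a median of 10.1 in fibre1, against 19.6, 18.03, 19.3 and 14.95 CPM in fibre2B pigs 10, 11, 14 and 16. Fibre1 pig 7 reached fibre2B pig 16 and the others were apart. The difference came to a log2 fold change of -0.72 ± 0.17 (edgeR adjusted p = 0.025), and the call ended without fibre2B pig 14 (adjusted p = 0.085), and likewise without fibre1 pig 2 and without fibre2B pig 10 (0.0512 to 0.0632). SLC35A5 ran from 4.52 to 8.12 CPM in fibre1, against 10.7, 9.28, 10.3 and 10.8 CPM in fibre2B, with no overlap. Its log2 fold change was -0.68 ± 0.16 (edgeR adjusted p = 0.028). It no longer passed without fibre2B pig 14 (adjusted p = 0.085) and without any one of fibre1 pigs 1 and 2 and fibre2B pigs 10 and 16 (0.0505 to 0.0681). SLC35A4 went the other way, with 4.22 to 10.9 CPM in fibre1 and a median of 7.46, against 3.26, 5.07, 3.12 and 3.54 CPM in fibre2B. Fibre1 pig 17 lay below fibre2B pig 11 and the other 6 fibre1 pigs above all fibre2B pigs. Its log2 fold change was 0.98 ± 0.23 (edgeR adjusted p = 0.026), lost without fibre2B pig 14 (adjusted p = 0.089), 10 or 16 (0.0657 to 0.0703).

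SLC66A2 belongs to the PQ-loop family of organelle membrane proteins. It ran from 31.9 to 42.8 CPM with a median of 35.9 in fibre1, against 25.04, 22.02, 28.4 and 27.4 CPM in fibre2B, and the groups did not overlap. As a log2 fold change this was 0.53 ± 0.13 (edgeR adjusted p = 0.028), and the call ended without fibre2B pig 14 (adjusted p = 0.071) or without any one of fibre1 pigs 2, 5 and 6 and fibre2B pigs 10, 11 and 16 (0.0538 to 0.0699). Among 9 carriers of organic ions 1 was higher in fibre2B and 8 did not pass. That row was SLC16A9, a carnitine carrier of the SLC16 family, at 0.244 to 1.68 CPM in fibre1 and 0.917, 2.25, 7.04 and 3.02 CPM in fibre2B. Fibre2B pig 10 lay within the fibre1 range, and fibre2B pig 14 was the highest pig of the study. The log2 fold change was -1.73 ± 0.47 (edgeR adjusted p = 0.040). Without fibre2B pig 14 it was -1.05 (adjusted p = 0.200), and the call also ended without any one of fibre1 pigs 1, 2, 5, 6 and 7 and fibre2B pig 16 (0.0509 to 0.0786) and with limma-voom (0.091). Carriers of vitamins, lipids and choline had 0 calls among 10 rows, where 9.01% of all tested genes passed. Among the 10 rows 1 had an unadjusted p under 0.05 (edgeR adjusted p = 0.092), and DESeq2 and limma-voom also called 0.

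**Figure D4:**
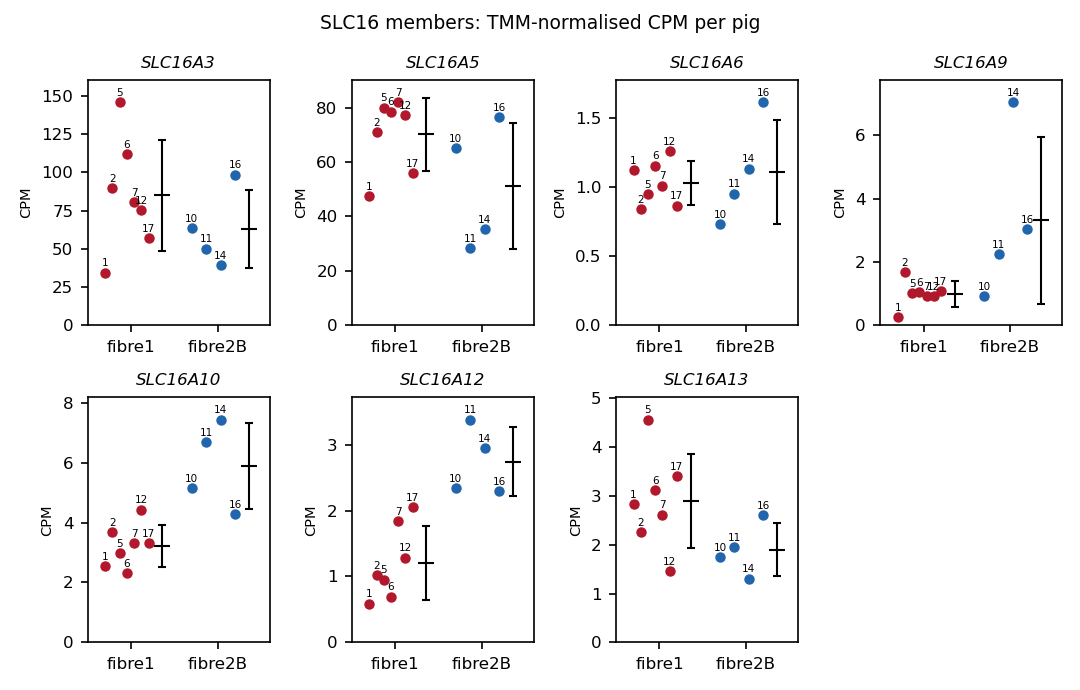
TMM-normalised CPM (vertical axes) of 7 kept members of the SLC16 family, with a point per pig numbered as in the study, fibre1 pigs in red and fibre2B pigs in blue, and the mean with its SD in black. SLC16A9, SLC16A10 and SLC16A12 passed and were higher in fibre2B, and the groups overlap for SLC16A3, SLC16A5, SLC16A6 and SLC16A13.

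Of the 7 SLC16 rows plotted 3 passed, all higher in fibre2B, where 4.63% of all tested genes were. The 4 rows grouped with lactate had 0 calls, where 9.01% of all tested genes passed. The family was not among the classes set beforehand, and a pattern of the family was not tested. Isoform counts were joined to all 98 rows from the order and sums of the isoform table, and 92 of them had counts on 1 isoform. The other 6 had 10 tested isoforms, of which 0 passed and 1 had an unadjusted p under 0.05, where 5.39% of 12212 isoforms passed overall. One of the 6 was SLC16A12, whose counts were split between a pair of isoforms. The first, ENSSSCT00000011441, took 0% to 100% of the gene in fibre1 pigs and 0% to 63.5% in fibre2B pigs. The split therefore varied between pigs of 1 group over its whole range, and the call above is on the sum of both. The second isoform, ENSSSCT00000025353, had a log2 fold change of -1.77 ± 0.79 (edgeR adjusted p = 0.179).

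Some carriers of interest could not be described. Of 28 genes that were to be named in any case 14 were kept. SLC16A7 and SLC6A6, a lactate and a taurine carrier, fell under the CPM rule with 56 and 8 counts over all pigs. The other 12 had no row under their symbol and are not analysed here, among them SLC2A1 and SLC16A1, the general glucose and lactate carriers, and SLC7A5, a large neutral amino acid carrier. Among rows under the CPM rule, 14 entered the fit and 2 passed there, where 9.01% of all tested genes passed. Both were named after their values were seen. Each reached 1 CPM in fibre2B pigs alone, the group in which it was high. Their folds are therefore not given as results, and the means below are not read as a difference. SLC15A2, a peptide carrier, averaged 0.341 ± 0.183 CPM in fibre1 pigs and 1.11 ± 0.226 CPM in fibre2B pigs, with 1 CPM in 3 fibre2B pigs and 0 fibre1 pigs. SLC4A10, a bicarbonate carrier, averaged 0.269 ± 0.224 CPM in fibre1 pigs and 1.07 ± 0.458 CPM in fibre2B pigs, with 1 CPM in 2 fibre2B pigs and 0 fibre1 pigs. Just inside the rule SLC20A2 and SLC6A4 had 1 CPM in exactly 4 pigs.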

How the data were processed

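RNA-seq of 11 pig muscles was analysed from the expected counts (estimated read counts per gene and isoform, not normalized) that the authors deposited. The submitters' processing notes name RSEM, STAR, edgeR, DESeq2, FastQC and CASAVA 1.8.2, with Sscrofa10.2 as the build, but neither their roles nor their order. Per the series' design text each pig was sequenced in 5 technical repetitions, deposited as 1 column per pig. Per the labels' protocols libraries were made with a TruSeq kit from total RNA; strand use is not given, so overlapping genes cannot be separated. Each pig has its own sample, and the labels do not say more about how animals were sampled. Columns were joined to pigs by the number in the title, and 0 columns were left over.

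An ID table gave a symbol to 11804 of 25322 rows. Genes were tested over the whole table with edgeR 4.0.16 in R 4.3.3 (TMM factors, filterByExpr, quasi-likelihood F test, group term only), with Benjamini-Hochberg adjustment over 11329 genes at 0.05. A standard error is the absolute log2 fold change over the root of its F statistic. Values in CPM are TMM-normalised, except in the rule of 1 CPM, which used plain library totals (98 rows under either). Substrate classes follow textbook families. SLC35A4 and SLC66A2 have no class among the 6. Isoforms were assigned to a gene where consecutive isoform counts added up to the gene in all 11 pigs, which is inferred from the values. The text names up to 12 called rows per direction by size of fold change, the 3 smallest p in each of 6 classes, and 28 fixed genes. A few of these are not reported here. Members and lists were chosen with earlier results of these data known. Alternatives were other scaling, filters, DESeq2 1.42.0, limma-voom (limma 3.58.1), removal or adjustment for abundant genes, and leaving out pigs.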

Additional observations from a re-analysis of the deposited data

Results flagged for a closer look

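Within each group the highest and the lowest pig were set against the nearest other pig for 30 named carriers, in 60 groups of pigs, and 6 stood out; chance flags about 1 in 20. In fibre1 pig 1 SLC40A1 had 13.4 CPM, where the next pig had 6.61, and SLC9A5 had 1.32 CPM, where the next had 0.918. SLC12A2 was at 13.4 CPM in fibre1 pig 12, and the next pig was at 7.07. SLC4A4 was at 22.5 CPM in fibre1 pig 7, and the next was at 11.8. On the low side SLC20A2 had 0.341 CPM in fibre2B pig 14, where the next fibre2B pig had 0.886, and SLC37A1 had 2.19 CPM in fibre2B pig 16, where the next had 3.29.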

How the results depend on the processing

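With other scaling factors (RLE or upper-quartile), a filter of 1 CPM in at least 4 pigs, or the most abundant and mitochondrially encoded genes removed, all 11 calls remained. With no filter 9 remained (9.18% of carriers beside 4.01% of all genes), and the amino acid class had 1 call. DESeq2 called 1740 genes and 12 carriers, all 11 among them, and limma-voom called 9 of the 11. When the fit also held each pig's count share on the top 10 genes, 2 members were higher in fibre1, 0 in fibre2B and 460 genes passed. That was 2.04% of carriers beside 4.06% of all genes, with 0 calls among amino acid and 0 among metal carriers. Without fibre1 pigs 5 and 6 the counts were 0, 0 and 28, with 0 calls among sugar, 0 among amino acid and 0 among metal carriers. In that fit 20 of 98 rows and 2438 of 11243 tested genes had an unadjusted p under 0.05. With each pig left out in turn 0 to 5 members were higher in fibre1, 0 to 7 in fibre2B and 0 to 1548 genes passed, and calls ran from 0 to 1 among sugar, 0 to 4 among amino acid and 0 to 2 among metal carriers. DESeq2 without fibre2B pig 14, chosen after seeing the data, left 1 call among metal carriers. The cause was not tested.

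Among named carriers no called row changed sign in any of these settings, which use all or most of the pigs that gave the calls. Signs turned for SLC29A2 with upper-quartile factors (-0.033) and without fibre1 pigs 5 and 6 (-0.026), for SLC20A2 (-0.12) and SLC40A1 (-0.16) with limma-voom, and for SLC12A2 (-0.14) and SLC40A1 (-0.063) with DESeq2 without fibre2B pig 14. With single pigs left out SLC12A2 ran from -0.29 to 0.22, SLC20A2 from -0.34 to 0.33, SLC29A2 from -0.31 to 0.33, SLC40A1 from -0.35 to 0.19 and SLC7A8 from -0.33 to 0.086. No paired analysis was possible because no replicate number occurs in both groups. Depth limits rows near 1 CPM, which rest on 14.8 to 36.4 counts per pig.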
